A study of Sus scrofa with 21 samples.

Results

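The scar of the left ventricle was compared with non-infarcted myocardium of the same hearts 6 weeks after myocardial infarction (MI), to ask how far the transcripts of a scar at this stage differ from those of surviving muscle. The members are 6 of the 21 arrays of the series, chosen by their region, time and pig labels: 3 infarct core (IC) arrays from the middle of the scar and 3 remote myocardium (RM) arrays from the interventricular septum of pigs 2, 3 and 5, sampled on day 45 by the labels. The animals were female Landrace x Large White pigs in which a double ligature permanently closed the first marginal branch that the circumflex artery gives off. The other arrays are the IC and RM pairs of 3 pigs each at 1 and 4 weeks post-MI and the control myocardium (CM) of 3 pigs, which the labels call sham-operated and the study's text calls healthy. IC came from the ventricular wall under the ligated branch and RM from the septum, so infarction and anatomical position cannot be told apart in this comparison. Expression values are log2 RMA values from the Affymetrix GeneChip Porcine Genome Array, on which a difference of 1 is a doubling.

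Ligation of a coronary branch kills cardiomyocytes downstream, which do not regrow, and the tissue they leave is cleared by phagocytes and rebuilt as scar. Fibroblasts, some of which become contractile myofibroblasts, fill it with collagen, with glycoproteins that organize the fibrils and with enzymes that crosslink and cut them. Surviving cardiomyocytes draw most of their ATP from fatty acid oxidation in densely packed mitochondria, so genes of the respiratory chain and of the contractile sarcomere mark muscle, and matrix genes mark scar.

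Of 12180 probe sets tested, 5807 (47.7%) differed between IC and RM at 6 weeks at an adjusted P value under 0.05 in limma with the pig as a block, 2758 (22.6%) higher in IC and 3049 (25.0%) lower. These probe sets are called DEPS (differentially expressed probe sets) below, and log2 differences are IC minus RM averaged over the 3 pigs. Counts of calls in the gene lists below are to be read beside the shares of 22.6% and 25.0%. Errors are limma standard errors (SE). Their spread is estimated over the pairs of all 9 infarcted pigs and drawn towards that of other probe sets. An SE can therefore be smaller or larger than the spread of the 3 differences at 6 weeks implies. The rises were the larger changes. A log2 difference of at least 2 was reached by 364 DEPS above RM and by 9 below it, and one of at least 3 by 111 above and 0 below. The largest rise was 6.47 and the largest fall -2.28. At 1 week 427 DEPS lay at least 2 above RM and 122 at least 2 below, and at 4 weeks 401 and 197, with largest falls of -3.54 and -4.13. Of the 364 large rises at 6 weeks, 87 had an RM mean below 3, the level of the filter, so the size of those rises depends on the array background and is not exact.

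The 3 pigs differed in the size of their differences. Over all probe sets tested 71.1% had the same sign in the 3 pigs. The 3 IC values did not overlap the 3 RM values for 51.5% of the probe sets tested. Pig 5 had the largest difference of the 3 for 54.3% of the DEPS higher in IC and for 71.7% of those lower, and without it 3588 probe sets were called, 3519 of them among the 5807. The median of the DEPS higher in IC was 0.83, 0.90 and 1.09 in pigs 2, 3 and 5, and that of the lower ones -0.60, -0.68 and -0.94. The smallest p of an exact sign flip over 3 pairs is 0.25, and no such test is quoted for a gene. The RM mean was nearer to the CM mean than the IC mean was for 86.5% of the DEPS higher in IC and for 91% of those lower, with no test.

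Measures of the arrays also differed with region. The log2 distance between the 3′ and the 5′ probe sets of GAPDH, which grows as RNA is cut or copied incompletely, was 1.14, 0.98 and 1.29 in IC of pigs 2, 3 and 5 and 0.22, 0.28 and 0.33 in RM, and that of ACTB was also larger in IC in each pig. Of 34 probe sets for labelling control RNAs 6 were DEPS higher in IC, with a median difference of 0.96, 0.71 and -0.04 in the 3 pigs, and of 27 hybridization controls 0 were DEPS in limma. The part of these measures in the results was not tested. Shares of higher DEPS moved with the scaling, from 47.5% as deposited to 37.4% with arrays centred on their median, 32.3% centred on ribosomal protein genes and 53.8% after cyclic loess, and the median over all probe sets moved from -0.06 to -0.17, -0.26 and -0.00365. In whole tissue, fewer cells of a type cannot be told apart from less RNA per cell, for every gene that follows.

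The 12 genes with the largest rises differed by 5.07 to 6.47. Values below are given in the order of pigs 2, 3 and 5. CILP, a glycoprotein first known from cartilage, read 10.44, 9.78 and 10.54 in IC and 5.10, 5.04 and 2.28 in RM, a log2 difference of 6.12 (SE 0.68, adjusted p = 0.000102). FMOD, fibromodulin, a small proteoglycan that binds collagen fibrils, read 10.62, 10.02 and 11.25 in IC and 4.42, 4.41 and 4.25 in RM, a difference of 6.27 (SE 0.33). Both genes stood far above RM in every pig.

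SFRP1, a secreted inhibitor of Wnt signals, read 9.99, 9.87 and 10.90 in IC and 4.94, 5.32 and 5.28 in RM, and at 5.07 (SE 0.24, 33.7-fold) it was among the most even of the large rises. AEBP1, a collagen-binding matrix protein, read 9.05, 9.65 and 10.14 in IC and 4.48, 4.51 and 3.70 in RM, a difference of 5.38 (SE 0.28). COL12A1, a collagen that attaches to fibril surfaces, differed by 5.35 and SPP1, the matrix cytokine osteopontin, by 5.18. The other genes of this group were KERA (6.44), a proteoglycan known from the cornea, C1QTNF3 (6.33), a secreted protein with a complement-like domain, PTN (5.47), a heparin-binding growth factor, PENK (5.38), the precursor of enkephalins, CCBL2 (5.13), a kynurenine aminotransferase, and LOC396781 (6.47), described with the antibody genes. KERA stood at 0.69 to 0.99 in RM, at the bottom of the scale. FMOD, KERA, PENK, COL12A1 and CCBL2 are named by the study's match to human genes, which the platform's annotation does not give.

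**Figure D1:**
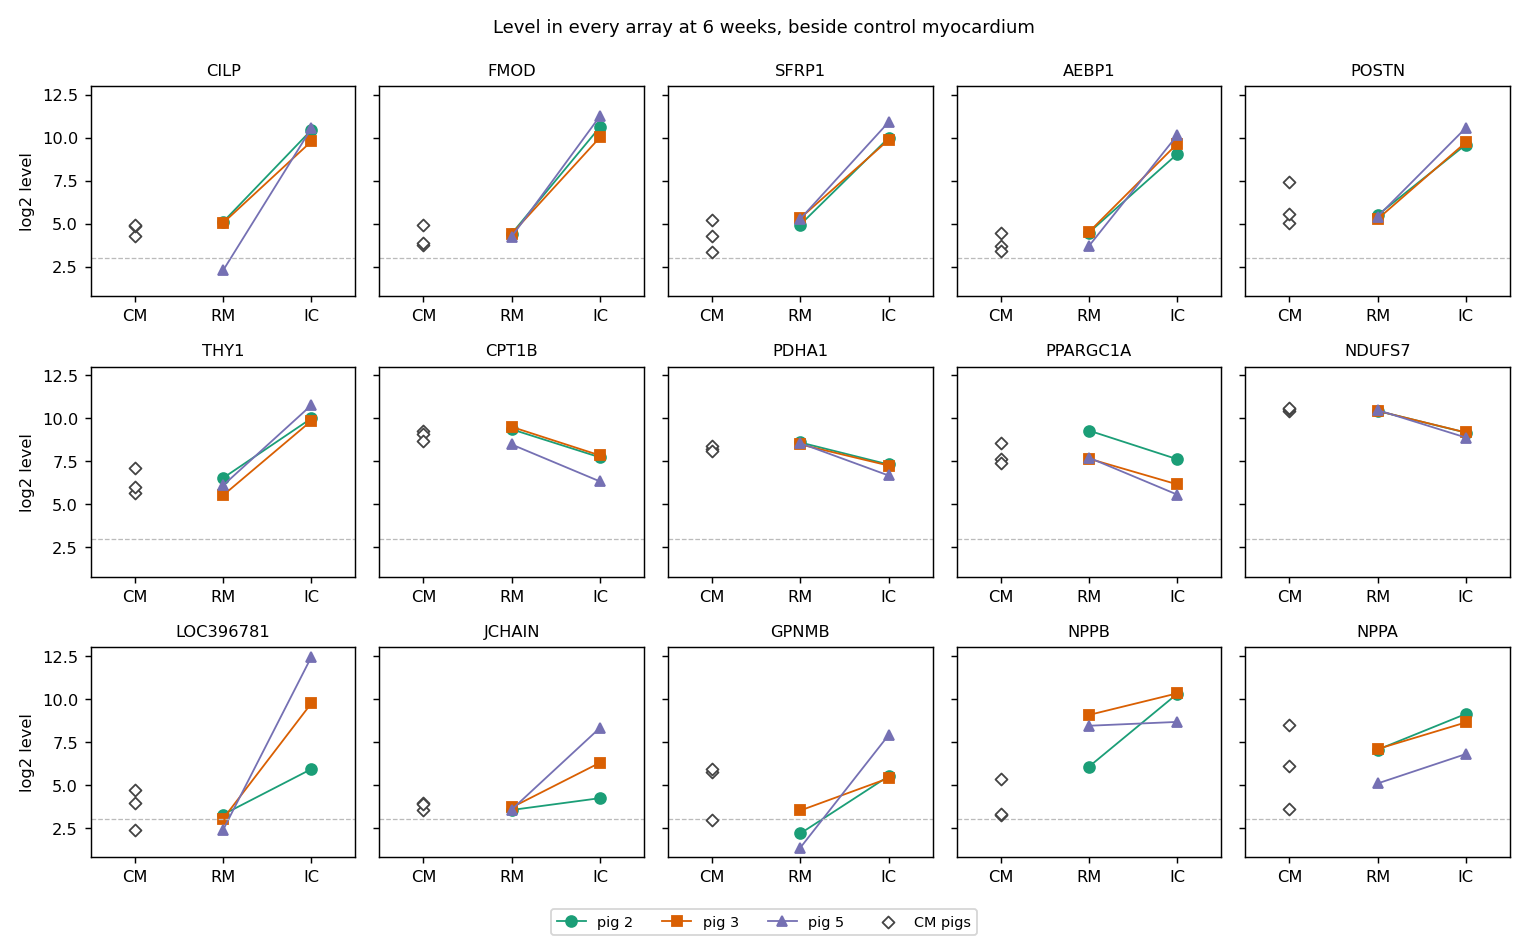
Level (log2) of 15 genes in each array, with control myocardium (CM, 3 open diamonds) at the left and remote myocardium (RM) joined to infarct core (IC) for pigs 2, 3 and 5; the dashed line marks the filter level of 3. CILP, FMOD, SFRP1, AEBP1, POSTN and THY1 lie far above both CM and RM in IC of every pig, with CILP of pig 5 below CM in RM, the energy genes lie lower in IC in every pig, and the last row differs widely between pigs.

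Collagen genes were higher in IC by their bright probe sets. COL1A1, a chain of type I collagen, the main fibre of scar, read 9.30, 9.68 and 10.10 in IC and 5.04, 4.83 and 4.72 in RM, a difference of 4.83 (SE 0.21, 28.4-fold). The probe set for COL1A2, its partner chain, that the study's match names read 11.9985, 12.22 and 12.44 in IC against 8.89, 8.70 and 8.39 in RM (3.56). Probe sets matched to COL3A1, the type III chain, gave 2.06 and 2.41. These 3 genes were read from study-matched probe sets after values were seen, because the platform-named probe sets of COL1A2 (0.55, a DEPS) and COL3A1 (-0.29, adjusted p = 0.241) stand at 3.21 to 5.89 in IC and differ from the bright ones. By platform names 3 of 4 tested fibrillar collagens were higher and 0 lower, with a median of 1.16 beside -0.06 over all probe sets, led by COL5A1 (3.05), which sets fibril width. All 5 other collagens tested were higher: COL8A1 (3.27) of vessel walls, COL6A3 (2.76) and COL6A2 (1.88, a probe set that the study matches to DOCK11) of the beaded filaments around cells, COL15A1 (1.07) and COL4A2 (0.86) of basement membranes.

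Glycoproteins of the matrix and the enzymes that crosslink it followed the collagens. Of 22 tested, 19 were higher in IC and 0 lower, with a median of 2.59. Their IC and RM values did not overlap for 19, beside 51.5% of all probe sets tested. POSTN, periostin, made by activated fibroblasts, read 9.60, 9.73 and 10.57 in IC and 5.49, 5.26 and 5.41 in RM (4.58, SE 0.25). CCDC80, a matrix-bound protein of mesenchymal cells, differed by 5.04, THBS2, a thrombospondin that restrains vessel growth, by 4.32, and LOXL1, a crosslinking enzyme of elastic fibres, by 4.13. The median of the list was 1.96, 2.86 and 3.01 in pigs 2, 3 and 5.

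Small leucine-rich proteoglycans coat collagen fibrils and control their spacing. By platform names 5 of 5 were higher, with a median of 2.87 (2.97, 2.78 and 2.85 in pigs 2, 3 and 5), although 4 of the 5 genes had their largest difference in pig 5. BGN, biglycan, read 9.73, 9.61 and 10.32 in IC and 5.99, 6.00 and 5.80 in RM (3.96, SE 0.23). PRELP differed by 3.90, LUM (lumican) by 2.87, DCN (decorin) by 2.14 and ASPN (asporin) by 1.66. DCN stood at 11.20 to 11.42 in IC and at 8.91 to 9.33 in RM, so even a proteoglycan that was bright in remote muscle was higher in scar.

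Enzymes that cut matrix and their inhibitors were higher together, 10 of 13 with 0 lower and a median of 1.50. MMP2, a gelatinase, read 8.17, 8.43 and 8.78 in IC and 5.37, 5.25 and 4.51 in RM (3.42, SE 0.26), and CTSK, a collagen-degrading cathepsin, differed by 2.68. The inhibitors TIMP2 (2.46) and TIMP1 (2.04) of metalloproteinases and SERPINF1 (2.44), an anti-angiogenic serpin, were higher in the same tissue, as was PLAT (2.02), which activates plasminogen.

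**Figure D2:**
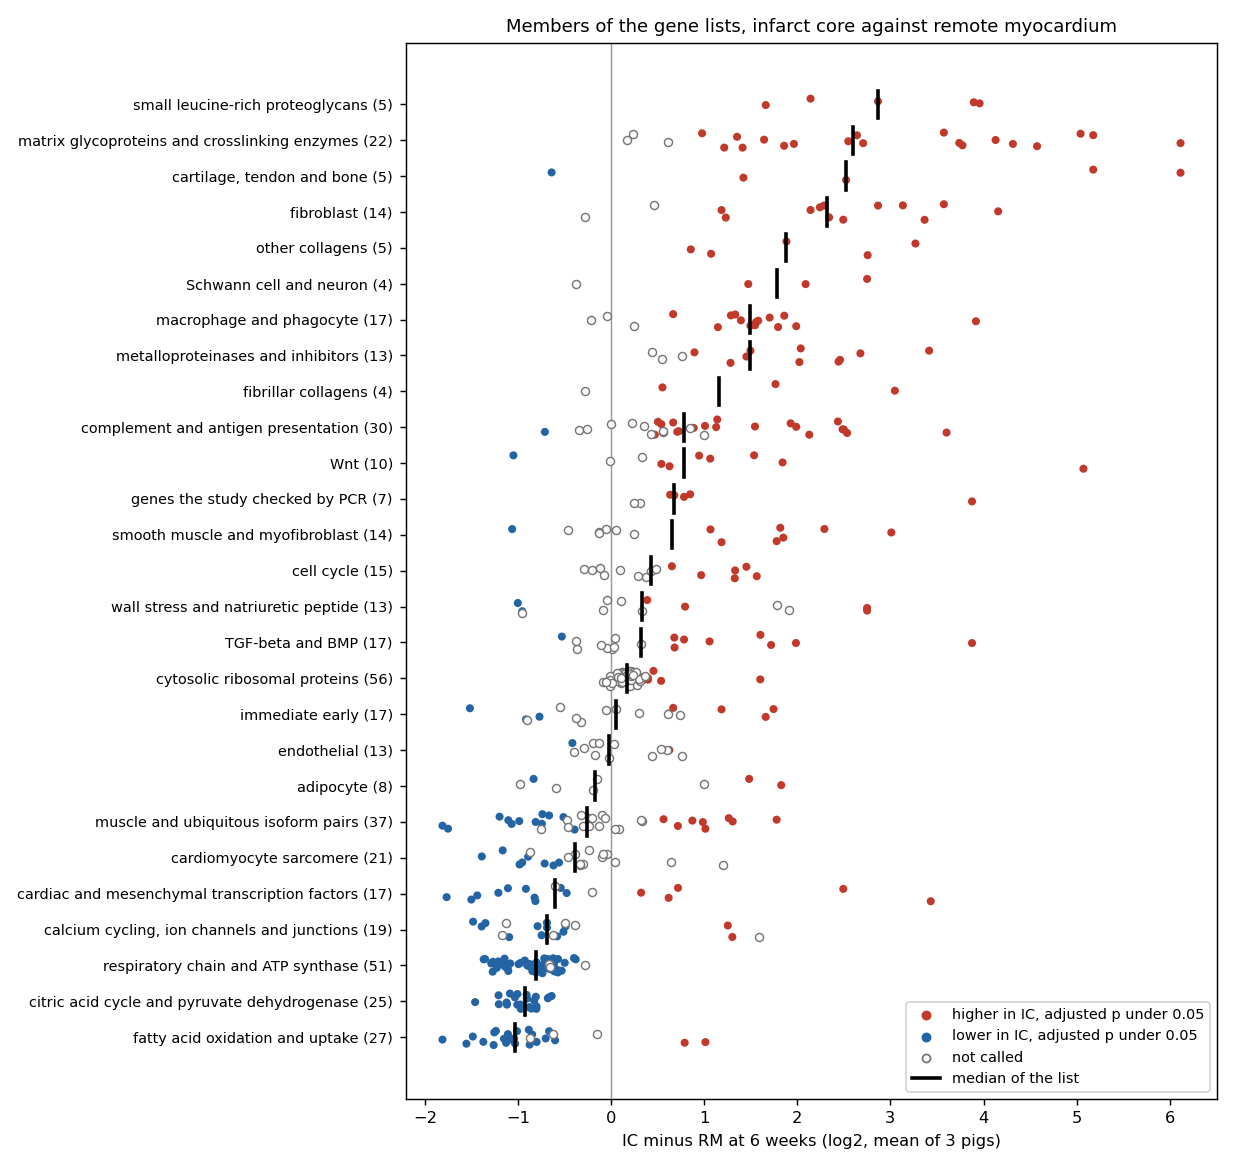
IC minus RM at 6 weeks (log2, mean of 3 pigs) for every tested member of 27 gene lists with at least 4 tested members, with filled points for calls (red higher, blue lower), open points for genes not called and a bar at the median of the list. Proteoglycans and matrix glycoproteins lie highest (medians 2.87 and 2.59), fatty acid oxidation genes lowest (-1.03), and endothelial genes around 0 (-0.03).

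Markers of fibroblasts were higher in IC for 12 of 14 genes, 0 lower, with a median of 2.31. The list shares COL3A1, DCN, LUM and FBLN1 with the matrix lists above. THY1, a surface glycoprotein of fibroblasts, whose probe set the study matches to SIDT1, read 9.999, 9.86 and 10.77 in IC and 6.53, 5.52 and 6.10 in RM (4.16, SE 0.24). FBLN1, a matrix fibulin, differed by 3.57, FAP, a surface protease of activated fibroblasts, by 3.37, CDH11, their cadherin, by 3.13 and TCF21, a transcription factor of cardiac fibroblasts, by 2.49. These 5 markers stood above the filter level of 3 in every array of both regions.

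Contractile genes of smooth muscle and myofibroblasts were called in both directions. ACTG2 (3.34 with the probe set that both sources name, and 3.01 with a brighter one that the study matches to CYBRD1), TAGLN (2.29), ACTA2 (1.85) and CALD1 (1.82), actins and actin-binding proteins of contractile cells, were higher, as was the tropomyosin TPM4 (1.78). ACTA2, the actin that marks myofibroblasts, read 10.34, 10.50 and 10.54 in IC and 8.75, 8.36 and 8.72 in RM. In all 7 of 14 were higher and 1 lower, SMTN (-1.06), a cytoskeletal protein of smooth muscle, which stood at 8.58 to 8.66 in RM. The other 6 did not pass.

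Signals that act on fibroblasts differed gene by gene. TGFB3, a ligand of the TGF-beta family, read 7.61, 7.14 and 7.98 in IC and 4.11, 3.64 and 3.35 in RM, a difference of 3.88 (SE 0.23, 14.7-fold), and TGFB2 differed by 1.06. Among receptors TGFBR1 (1.72) and BMPR1A (0.68) were higher. A probe set that the platform names BMPR1B and the study matches to FRK was lower (-0.53, adjusted p = 0.023), a call lost without pig 2 (adjusted p = 0.112), without pig 3 (0.0917), without the pig as a block (0.100) and with a random block (0.0511). The transducer SMAD1 (0.78), the activin-binding inhibitor FST (1.98) and BMP1 (1.60), which trims procollagen, were higher. Of the 17 members tested 8 were higher and 1 lower, with a median of 0.32.

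Among Wnt genes the secreted and membrane inhibitors stood out by size. Beside SFRP1, DKK3 (1.84, adjusted p = 0.0232), a Dickkopf-like protein, and APCDD1 (1.54), which binds Wnt and its receptor, were higher. The receptors FZD4 (1.06) and LRP6 (0.94) were higher and FZD5 (-1.05) lower. Counted over the list, 7 of 10 were higher and 1 lower with a median of 0.79, and 4 were higher without pig 3 or without pig 5.

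Transcription factors were called in both directions. PRRX1, a factor of mesenchymal progenitors, read 4.69, 5.64 and 6.53 in IC and 2.24, 2.04 and 2.28 in RM (3.43), and 2 more probe sets matched to it gave 3.89 and 3.68. HOPX (2.75), a homeodomain protein without DNA binding, and TWIST1 (2.41, by the study's match), a factor of mesenchymal fate, were also higher. PPARGC1A, the coactivator that drives mitochondrial biogenesis, read 7.63, 6.16 and 5.57 in IC and 9.29, 7.65 and 7.71 in RM (-1.77, SE 0.15, adjusted p = 2.65e-05). It was lower in IC of each pig and lowest in pig 5, and the groups did not overlap, by a margin that pig 2 made narrow.

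HEY2 (-1.50), a Notch target of ventricular muscle, HAND1 (-1.21), of early heart formation, and MYOCD (-1.11), a coactivator of smooth and cardiac muscle genes, were lower. Over 17 factors 5 were higher and 10 lower, with a median of -0.60, and 2 were higher with arrays centred on ribosomal protein genes. Of the 10 regulators tested among those the study's text lists as altered at every stage, MBD2 (0.72), which binds methylated DNA, SMAD1 and TWIST1 were higher, and HEY2, JUN (-0.92), a stress-responsive AP-1 subunit, MYOCD, PPARGC1A and SATB1 (-1.44), a chromatin organizer, were lower. EPAS1 (-0.60, adjusted p = 0.0705), a hypoxia-inducible factor, did not pass. PPARD, a nuclear receptor that switches on fatty acid genes, gave -0.20 (adjusted p = 0.187) with 1 probe set and -0.67 (adjusted p = 0.00307) with the other. The study found these regulators altered in IC against CM, whereas the values here are IC minus RM, so a gene that did not pass here is not a failed repeat. The study chose these on the same samples, so their direction is not independent evidence.

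Genes of energy metabolism were lower in IC nearly as a body. Of 103 genes in the lists of fatty acid oxidation, the citric acid cycle and the respiratory chain, 95 were lower and 2 higher. All 25 tested genes of the citric acid cycle and pyruvate dehydrogenase were lower, with a median of -0.92 and a range from -1.46 to -0.64. Of 51 genes of the respiratory chain and ATP synthase 48 were lower (median -0.80), and of 27 genes of fatty acid oxidation and uptake 22 were lower and 2 higher (median -1.03). The IC and RM values of all 51 respiratory chain genes did not overlap, beside 51.5% of all probe sets tested.

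CPT1B, the muscle enzyme that admits fatty acids to mitochondria, whose probe set the study matches to CHKB, read 7.73, 7.85 and 6.33 in IC and 9.36, 9.51 and 8.48 in RM, a difference of -1.81 (SE 0.16, adjusted p = 2.99e-05). CPT1A, the form that other tissues use for the same step, read 6.84, 6.53 and 5.49 in IC and 6.04, 5.47 and 4.32 in RM, a difference of 1.01 (SE 0.14). Both changed in each pig, in opposite directions. The acyl-CoA dehydrogenases ACADVL (-1.49) and ACADS (-1.37), the thiolase ACAA2 (-1.26), the lipase LPL (-1.26) and the ketone-body enzymes OXCT1 (-1.56) and BDH1 (-2.13) were lower. BDH1 gave -1.60 with a brighter probe set matched by the study. SLC27A6 (0.79, adjusted p = 0.0327), a fatty acid transporter, was also higher.

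PDHA1, the catalytic subunit of pyruvate dehydrogenase, read 7.32, 7.26 and 6.68 in IC and 8.60, 8.48 and 8.56 in RM (-1.46, SE 0.19). NDUFS7, a subunit of complex I, read 9.17, 9.18 and 8.89 in IC and 10.43, 10.43 and 10.48 in RM (-1.37, SE 0.15). Both were even in RM and lowest in IC of pig 5. IDH3A (-1.21) and SUCLA2 (-1.21) of the citric acid cycle and the complex I subunits NDUFB7 (-1.36) and NDUFV1 (-1.29) were close to them. The 3 respiratory chain genes that did not pass, COX6C (-0.29), CYCS (-0.66) and NDUFB5 (-0.66), named after their values were seen, were also lower in mean. Pig 5 had the largest fall for 97 of the 103 genes, and without it 26 of the 51 respiratory chain genes were still called lower.

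The largest falls with a name included the energy genes BDH1 (-2.13) and ACADVL, and the others were spread over other functions. CLDN7 (-2.17), a tight-junction claudin, DDIT4L (-2.07), an inhibitor of mTOR signalling, SLC41A1 (-2.01), a magnesium transporter, KHDRBS3 (-1.999), an RNA-binding protein, ASB11 (-1.99), an adaptor of ubiquitin ligases, PRKAR2A (-1.94), a regulatory subunit of protein kinase A, and RABGAP1 (-1.92), a regulator of Rab proteins, were lower in each pig. ASB11 read 7.18, 7.45 and 6.61 in IC and 9.08, 9.13 and 9.01 in RM, with no overlap. NR4A3 (-1.95), an orphan nuclear receptor, was lower in each pig but varied so much between pigs that its IC and RM values overlapped, and KIAA0774 (-1.95, by the study's match) and a second probe set of ACADVL (-1.92) complete the group. PDE3A, which degrades cyclic AMP, gave -1.96 with 1 probe set and 0.76 with another matched to it, both DEPS, so its direction is uncertain.

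Genes that exist in a muscle form and a form of other tissues separated by form. Of 37 members tested, 32 could be assigned to a form, an assignment made after values were seen. Of 16 muscle forms 12 were lower and 0 higher (median -0.75), and of 16 other forms 8 were higher and 0 lower (median 0.44). ENO3, the muscle enolase, read 10.43, 10.16 and 9.60 in IC and 11.36, 10.997 and 11.15 in RM (-1.11), and ENO1, the enolase of most cells, read 7.05, 6.83 and 7.22 against 6.43, 6.04 and 5.69 (0.98). The creatine kinases divided alike, CKM at -0.74 and CKB at 0.87, as did the phosphofructokinases PFKM (-0.99) and PFKP (0.56, adjusted p = 0.0203). PGAM2 (-1.75), the muscle phosphoglycerate mutase, and COX8H (-1.20), the muscle form of a cytochrome oxidase subunit by the platform and B3GNT7 by the study's match, were lower, and MYL6 (1.31) and ACTB (1.26), the non-muscle myosin light chain and actin, were higher. A less bright probe set that the platform names ACTB gave 0.36 and did not pass in limma (adjusted p = 0.0976). The 13 members of the whole list called lower became 8 without pig 3 or without pig 5.

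Sarcomere genes were lower in part. Of 21 tested 8 were lower and 0 higher, beside 25.0% lower and 22.6% higher of all probe sets. The median was -0.39 (-0.22, -0.38 and -0.61 in pigs 2, 3 and 5). Without pig 5, 3 of the 21 were lower, a share like that of all probe sets, 1642 of 12180. MYH7, the ventricular myosin heavy chain, read 12.998, 12.88 and 12.76 in IC and 12.92, 12.95 and 12.89 in RM, a difference of -0.04 (SE 0.14, adjusted p = 0.832) that turned to 0.27 after cyclic loess and 0.0056 without pig 5. MYL2, its regulatory light chain, differed by -0.10 (SE 0.16) and by 0.21 after cyclic loess. Both, named after their values were seen, stood at 12.56 or above in every array of scar and remote muscle, near the highest value of the deposited table, 13.4.

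Among 11 sarcomere genes with a mean of at least 11 over the 21 arrays 1 was lower and the median was -0.30, while among the other 10 genes 7 were lower and the median was -0.89. For the respiratory chain 7 of 8 genes at this level were lower (median -0.54), beside 41 of 43 below it (median -0.85). Below a mean of 11 the medians of sarcomere and respiratory chain genes were thus close. Over all DEPS lower in IC the median was -0.57 at a mean of at least 11, where no fall went beyond -1.22, and -0.78 at 9 to 11. The sizes of differences at the bright end of the array were therefore smaller among all lower DEPS, and the part of this in the sarcomere values was not tested.

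TMOD1, which caps thin filaments, read 7.48, 6.81 and 6.30 in IC and 8.50, 8.03 and 8.23 in RM (-1.39, SE 0.24). MYOM2 (-1.17) and MYOM1 (-0.98) of the M-band, XIRP1 (-0.96) of the intercalated disc and TCAP (-0.89) of the Z-disc were lower too. The atrial light chain MYL4 read 7.07, 6.92 and 5.41 in IC and 5.50, 5.69 and 4.62 in RM, higher in each pig (1.20), and did not pass (adjusted p = 0.16).

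Calcium handling and ion transport genes were lower for 11 of 19 and higher for 2, with a median of -0.69. CACNA2D1 (-1.48), a calcium channel subunit, and SLC8A1 (-1.39), the sodium-calcium exchanger, were lower. RYR2, the calcium release channel, was lower with the platform's probe sets (-1.35 and -1.90) and higher with one matched by the study (2.34), so it is uncertain. FKBP1B (1.30), which binds that channel, and GJA5 (1.25), a connexin of conducting and vascular cells, were higher. Without pig 5, 4 of the 19 were lower, and without pig 3, 6.

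Natriuretic peptide genes, released by stretched muscle, varied widely between pigs. NPPB read 10.31, 10.33 and 8.67 in IC and 6.07, 9.08 and 8.45 in RM, against a CM mean of 3.98, and did not pass (1.91, SE 1.42, adjusted p = 0.288). NPPA read 9.13, 8.64 and 6.80 in IC and 7.05, 7.09 and 5.09 in RM (1.78, adjusted p = 0.117). Each was higher in IC of every pig, but RM of pigs 3 and 5 stood near IC for NPPB. Of 13 wall stress genes 4 were higher, UCHL1 and HOPX (both 2.75) the largest, and 2 lower, XIRP1 and EDNRA (-1.003), the endothelin receptor. These shares lay near those of all probe sets (22.6% higher and 25.0% lower). The higher genes numbered 2 without pig 3, without pig 5 or with arrays centred on ribosomal protein genes. AGT (-0.96, adjusted p = 0.0853), the angiotensin precursor, read 4.35 in IC of pig 5 and 6.86 and 6.98 in IC of pigs 2 and 3.

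Other genes with large differences that did not pass were MYL1 (2.18, adjusted p = 0.0859), a myosin light chain of fast and embryonic muscle, SLN (1.59, adjusted p = 0.165), an inhibitor of the sarcoplasmic calcium pump, PDYN (1.53, adjusted p = 0.157), an opioid precursor, and LOC100621559 (1.68, adjusted p = 0.0688), a locus with no description here. MYL1 read 9.36, 7.88 and 7.98 in IC and 6.88, 3.98 and 7.82 in RM, so pigs 2 and 3 carried the difference and pig 5 had almost none. LOC100621559 was below RM in pig 2 and above it in pigs 3 and 5.

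Markers of phagocytes were higher for 14 of 17 genes, 0 lower, with a median of 1.50. The list shares C1QC with the complement list below. C1QC, a complement chain made by macrophages, read 7.42, 7.91 and 7.99 in IC and 6.50, 5.75 and 5.11 in RM (1.99, SE 0.34). FCGR3A (1.86), an antibody receptor, LAPTM5 (1.79), a lysosomal protein of leukocytes, AIF1 (1.70) and TYROBP (1.58), a signalling adaptor, were close to it. The defining gene CD163 differed by 0.44, 1.47 and 1.95 in pigs 2, 3 and 5. GPNMB, a glycoprotein of lipid-laden macrophages, read 5.51, 5.40 and 7.90 in IC and 2.18, 3.52 and 1.36 in RM, and differed by 3.92 (SE 0.68). The 3 CM arrays read 2.97, 5.77 and 5.94 for GPNMB, so control muscle reached the level of scar in pigs 2 and 3.

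This group varied with the pig. Its median was 0.73, 1.59 and 2.01 in pigs 2, 3 and 5, and pig 2 had the smallest difference for 14 of the 17 genes. Without pig 5, 8 of the 17 were called. At 1 week the median of the list had been 2.46 and at 4 weeks 1.80.

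Antibody genes were among those with the widest spread between pigs. LOC396781, for which RefSeq gives the synonym IGHG, a heavy chain of immunoglobulin G, read 5.93, 9.75 and 12.45 in IC and 3.28, 3.03 and 2.39 in RM. Its differences of 2.64, 6.72 and 10.06 averaged 6.47 (SE 1.25, adjusted p = 0.00211). JCHAIN, which joins antibody units in plasma cells, read 4.24, 6.30 and 8.33 in IC and 3.55, 3.70 and 3.57 in RM (2.68, adjusted p = 0.00784), and was not called without pig 5. Both stood below 4 in RM of all pigs, and in IC both were lowest in pig 2 and highest in pig 5. LOC100152327, a locus with no description here, had the same order, at 6.57, 10.19 and 11.62 in IC against 4.95, 5.18 and 4.51 in RM (4.58). JCHAIN was the only gene of 32 lymphocyte, mast cell and neutrophil markers tested, since 17 were on the array by platform names and the others did not pass the filter.

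**Figure D3:**
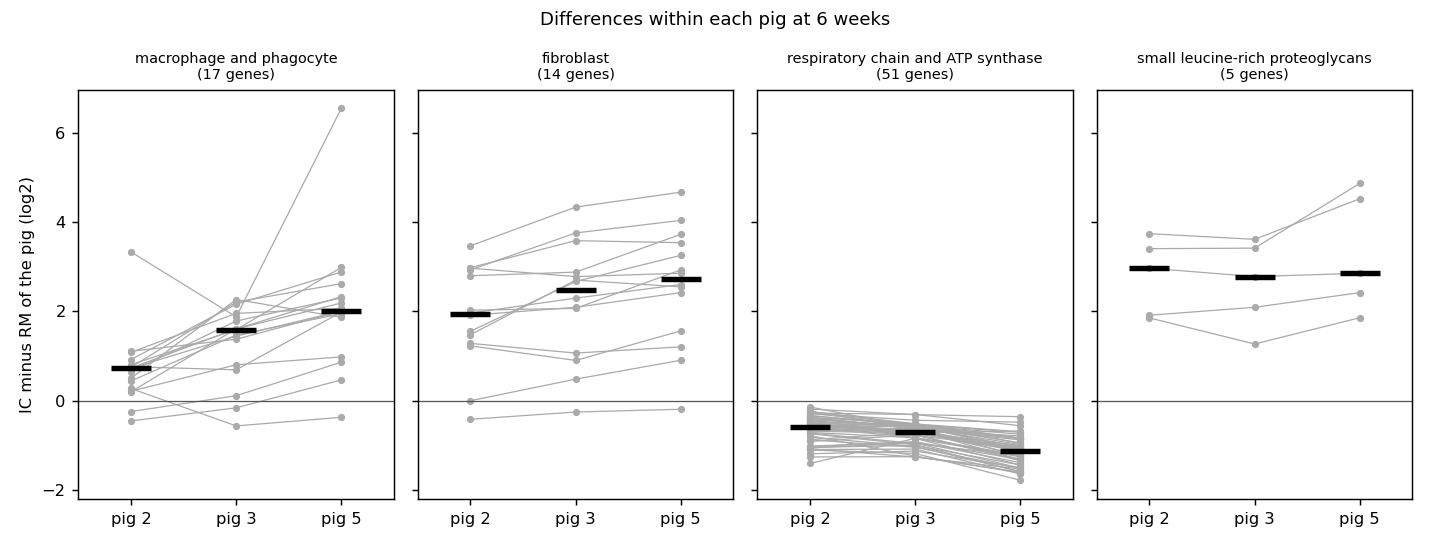
IC minus RM within each pig (log2) for the tested members of 4 gene lists, 1 grey line per gene across the 3 pigs and a black bar at the median of the list in that pig. Macrophage medians run from 0.73 to 2.01 between pigs and respiratory chain medians from -0.58 to -1.12, while proteoglycan medians lie between 2.78 and 2.97, with 4 of the 5 genes largest in pig 5.

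Complement and antigen presentation genes were higher for 19 of 30 and lower for 1, with a median of 0.79. C1R read 8.98, 9.86 and 9.31 in IC and 7.05, 6.88 and 6.61 in RM (2.53, SE 0.33). C1S (2.50), its partner protease, and SERPING1 (2.49), the inhibitor of both, differed by nearly the same amount. C4A (3.60) and C3 (2.13), the components that these proteases act on directly or through others, and CD55 (2.44), which protects cells from complement, were higher. SLA-DMA, which loads peptides on class II molecules, gave -0.71 with 1 probe set, and its probe sets disagreed, their mean being 0.092. Without pig 5 the count of higher genes was 12.

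Endothelial markers differed little. Of 13 tested 1 was higher, RAMP2 (0.62), a receptor partner of vessels, and 1 lower, AQP1 (-0.42), a water channel, and the median was -0.03. PECAM1, the junction protein of endothelium, read 7.69, 7.56 and 7.87 in IC and 7.34, 7.05 and 6.93 in RM (0.60, adjusted p = 0.0569), so its groups did not overlap although it did not pass. LYVE1 (0.76, adjusted p = 0.13), of lymphatic vessels and macrophages, stood above 5 in IC of pig 3 alone. RAMP2 was not called without pig 3 or without pig 5. AQP1 was not called without pig 2, pig 3 or pig 5, after cyclic loess or in a fit of the 6 arrays alone.

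Adipocyte markers were called in shares near or below those of all probe sets (22.6% higher and 25.0% lower). They were higher for 2 of 8, the lipid-making enzymes SCD (1.83) and FASN (1.48), and lower for 1, the lipase PNPLA2 (-0.83), with a median of -0.18. SCD read 3.59, 4.02 and 6.98 in IC and 3.03, 2.79 and 3.30 in RM, high in pig 5 only, and was not called without it. Of 4 markers of Schwann cells and neurons 3 were higher, UCHL1, NCAM1 (2.09), an adhesion molecule, and S100B (1.47), and MBP (-0.38), which defines myelin, did not pass. Each of these genes is made by other cells as well.

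Cartilage, tendon and bone genes numbered 5 tested, of which 4 were higher, CILP, SPP1, MGP (2.52), an inhibitor of calcification, and CLEC3B (1.42), tetranectin. MGP read 12.16, 12.03 and 12.29 in IC and 9.64, 9.65 and 9.64 in RM, one of the brightest signals of scar and one of the most even. SP7, a factor that bone-forming cells need, was lower (-0.64). The list shares CILP and SPP1 with the matrix genes.

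Housekeeping and growth genes gave a mixed picture. Of 56 cytosolic ribosomal protein genes 7 were higher and 0 lower, with a median of 0.17, led by RPL3 (1.60). Both shares were below those of all probe sets (22.6% higher and 25.0% lower). The count of higher genes depended on the scaling. After cyclic loess 35 were higher (median 0.42), with arrays centred on the median 2 (median 0.06), and leaving out pigs 2, 3 and 5 gave 4, 1 and 1. Of 15 cell cycle genes 6 were higher and 0 lower (median 0.43), among them TOP2A (1.56), NUSAP1 (1.45), UBE2C (1.33) and CKS2 (1.33), which act in chromosome separation and cell division.

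Of 17 immediate early genes 5 were higher, with FOS (1.74) and EGR1 (1.66) the largest, and 3 lower, with a median of 0.05, near the 22.6% and 25.0% of all probe sets, and the higher and lower calls were 3 and 1 without pig 3, 2 and 0 without pig 5, and the lower ones 1 without pig 2. Among genes that the study checked by PCR 7 were tested and 5 were higher, or 3 with arrays centred on ribosomal protein genes. These were TGFB3, SMAD1, BMPR1A, BID (0.63), which links death receptors to mitochondria, and TNFRSF1A (0.85), a receptor of tumour necrosis factor. LMNA, the nuclear lamin, gave 0.31 (adjusted p = 0.0938) with its brightest platform probe set and 0.88, a DEPS, with one matched by the study, and NFKBIA, an inhibitor of NF-kappa B, gave 0.24 (adjusted p = 0.22). The study picked these genes from the same samples and compared IC with CM, not with RM.

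Few changes between stages passed a test. A contrast of the change from 4 to 6 weeks in limma called 0 of 12180 probe sets (0%), with 802 at an unadjusted p under 0.05. The change from 1 to 6 weeks was called for 39 (0.320%), 26 with a higher difference at 6 weeks and 13 with a lower one, with 1773 at an unadjusted p under 0.05. This count rests on few pigs. It was 5, 0 and 19 without pigs 2, 3 and 5 and 0, 1 and 0 without pigs 7, 8 and 9 of 1 week. The stages hold different pigs, so stage and animal cannot be told apart beyond the spread of 3 pigs.

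All 13 probe sets with a lower difference at 6 weeks had been higher in IC at 1 week and lay nearer to RM at 6 weeks. CXCR4, a chemokine receptor of leukocytes, went from 3.72 at 1 week to 1.36 at 4 weeks and 1.24 at 6 weeks. TOP2A, which untangles replicated DNA, went from 3.77 to 0.85 and 1.56, and the histone gene HIST1H2AK from 3.57 to 1.60 and 1.43. S100A4 (2.94 to 0.46 between 1 and 6 weeks), a calcium-binding protein of motile cells, MYO1F (2.41 to 0.44), a leukocyte myosin, and PLIN2 (1.81 to -0.40), of lipid droplets, no longer passed at 6 weeks.

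Of the 26 with a higher difference at 6 weeks 21 were called higher in IC at that stage. NTRK2, a neurotrophin receptor, read 8.89, 9.62 and 9.91 in IC and 5.38, 5.66 and 5.68 in RM at 6 weeks, a difference of 3.90 where it had been 1.22 at 1 week. GSN, gelsolin, which cuts actin filaments, read 11.62, 11.66 and 11.85 in IC and 9.59, 9.59 and 8.92 in RM, a difference of 2.34 after 0.08 at 1 week. FBP1 (0.32 to 2.91), an enzyme of gluconeogenesis, COL21A1 (0.32 to 2.85), a fibril-associated collagen, and MN1 (1.39 to 3.41), a transcriptional regulator, changed alike, and SCARA5, a ferritin receptor, went from -1.64 to 1.11. For 36 of the 39 probe sets the 4 weeks value lay between those of 1 and 6 weeks. The 39 were called for a large gap between those 2 stages, which by itself favours a value in between. The share over all probe sets was not counted, so nothing is drawn from this count about the course over time.

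**Figure D4:**
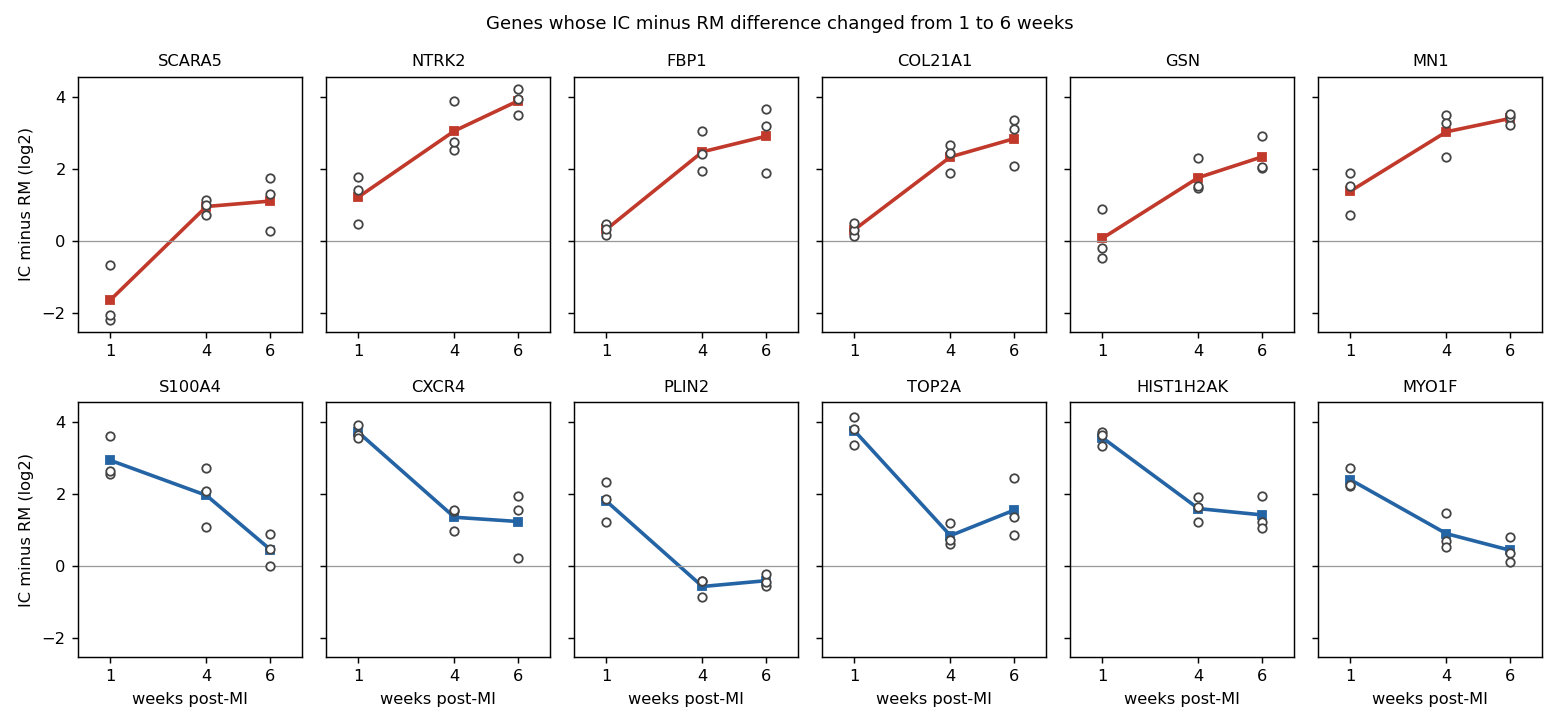
IC minus RM (log2) by week post-MI (1, 4 and 6) for 12 named genes, the 6 with the largest change from 1 to 6 weeks in each direction, with an open circle for each pig and a line through the means of 3 pigs, red for rising and blue for falling differences. GSN runs from 0.08 to 2.34 and CXCR4 from 3.72 to 1.24, and the pigs of 1 and 6 weeks do not overlap for either.

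The energy genes stood nearer to RM at 6 weeks than before, without a call. Their difference was smaller than at 4 weeks for 101 of the 103 genes and smaller than at 1 week for 88, and 0 had a called change from 4 weeks. Smaller differences than at 4 weeks were not particular to them. They were found for 20 of 21 sarcomere genes, 15 of 17 phagocyte markers and 45 of 56 ribosomal protein genes, but for 8 of 22 matrix glycoproteins. The share over all probe sets was not counted. Within pigs the median over the 103 genes was -0.64, -0.79 and -1.20 at 6 weeks (pigs 2, 3 and 5), -1.28, -1.13 and -1.73 at 4 weeks (pigs 18, 20 and 22) and -0.84, -1.30 and -1.25 at 1 week (pigs 7, 8 and 9). Pig 5 lay among the pigs of the earlier stages, and pigs 2 and 3 above all of them. Sarcomere genes had medians of -0.73, -1.02 and -0.39 at 1, 4 and 6 weeks, and matrix glycoproteins 2.01, 2.50 and 2.59.

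**Figure D5:**
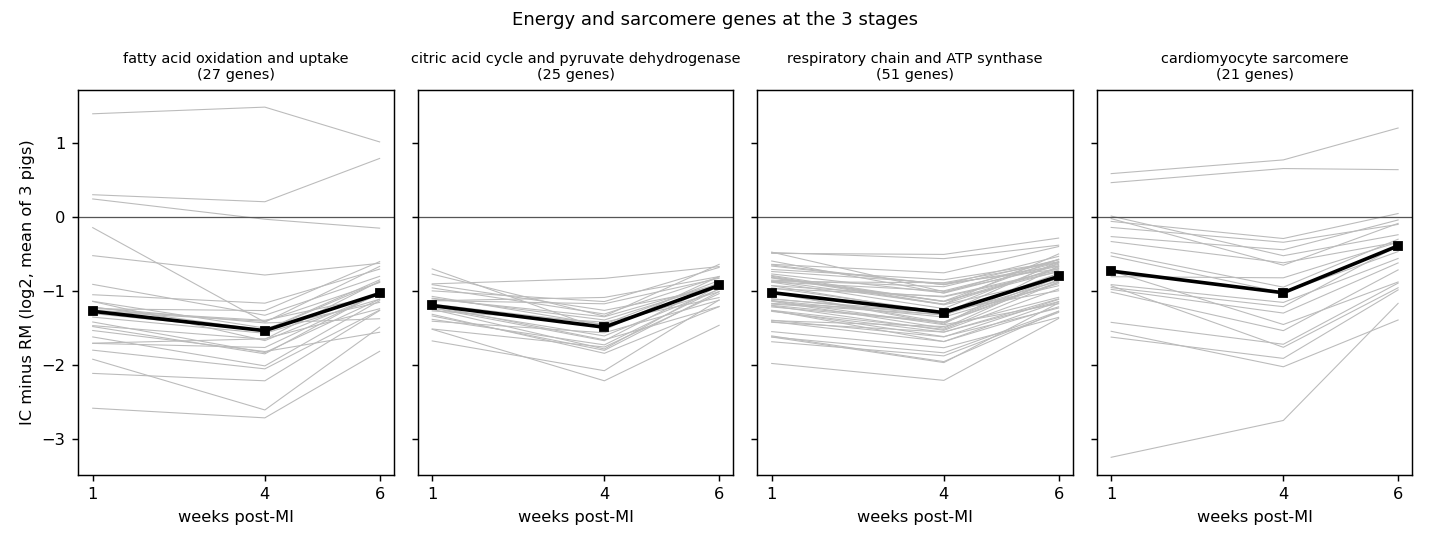
IC minus RM (log2, mean of 3 pigs) by week post-MI (1, 4 and 6), 1 grey line per gene and the median of the list in black. The medians of the 4 lists are lowest at 4 weeks and nearest to 0 at 6 weeks, at -1.03, -0.92, -0.80 and -0.39 from left to right.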

How the data were processed

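Total RNA of 21 myocardial samples was hybridized to 1 array each. The authors made the deposited log2 values by RMA, which corrects background, normalizes quantiles over arrays and summarizes probes, and the deposited table holds 24123 probe sets from -0.06 to 13.4. It carries no date or batch, and 3 pairs limit what can be resolved. The filter of the study's methods, a value above 3 in at least 10 arrays, kept 12180 probe sets. Of the 11943 left out, 239 were above 3 in all 3 IC arrays of 6 weeks. The values of the 18 IC and RM arrays entered a linear model (limma 3.58.1, R 4.3.3) with pig as a fixed block and 1 IC minus RM term per stage, with 6 residual degrees of freedom. Benjamini-Hochberg adjustment ran over all probe sets tested. CM arrays were not in the fit.

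The pairing comes from the pig number in the labels. Within-group residuals of IC and RM correlated at 0.0714 to 0.491 in the same pig, over 9 pigs, and at 0.0163 at most in different pigs. Group means were subtracted first, so a positive correlation in the same pig by itself lowers those between pigs.

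The members and lists (28) were chosen with earlier results of these data known. Named are the 12 largest rises and 12 largest falls with the same sign in 3 pigs, up to 6 members per list, the 6 largest changes between stages per direction, genes with large differences that were not called or that spread most between pigs, and the genes the study checked or listed; others are said to be named after values were seen. Names are the platform's where it gives 1 symbol (6257 probe sets), otherwise the study's human match (1078), and 4845 have none. Of 1350 probe sets with both names, 255 differ. A gene is read from its brightest probe set in the lists. For the largest rises, the largest falls and the changes between stages, the probe set with the largest difference is used. Of 994 genes with several probe sets, 35 were called in both directions. The code of the fit was run on simulated arrays with planted differences in few of the probe sets, which does not show how it performs on these data. Alternatives were other filters, scalings, blocks, variance models, array weights, thresholds, probe set averages and leaving out each pig.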

Additional observations from a re-analysis of the deposited data

Results flagged for a closer look

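The difference between IC and RM itself changed between 1 and 6 weeks in the limma contrast of the 2 stages for 12 named genes. It was lower at 6 weeks by a log2 change of -2.48 for S100A4, -2.48 for CXCR4, -2.21 for PLIN2, -2.20 for TOP2A, -2.15 for HIST1H2AK and -1.96 for MYO1F. It was higher by 2.75 for SCARA5, 2.68 for NTRK2, 2.59 for FBP1, 2.53 for COL21A1, 2.26 for GSN and 2.02 for MN1. HIST1H2AK, NTRK2, COL21A1 and MN1 are named by the study's match. All 12 are among the 39 calls whose number fell to between 0 and 19 when 1 of the 6 pigs was left out.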

How the results depend on the processing

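The count of 5807 DEPS was 7867 with no filter, 3704 at an adjusted p under 0.01, 1989 with an absolute difference of at least 1, 5335 with no replicate block, 6117 with the pig as a random replicate block and 3588 to 4974 without 1 pig, and 0 DEPS were called in the opposite direction at any of these settings. The 39 changes from 1 to 6 weeks became 105 with no filter, 64 above 5 in at least 3 arrays, 13 centred on the median, 8 with no replicate block, 107 with the random replicate block, 846 with array weights, 0 at an adjusted p under 0.01 and 0 to 19 without 1 pig. The change from 4 to 6 weeks called 1 probe set with no filter. Means of all probe sets turned COL3A1 to 1.39 and SLA-DMA to 0.092, cyclic loess turned MYH7 to 0.27 and MYL2 to 0.21, and MYH7 ranged from -0.10 to 0.0056 without 1 pig. The cause was not tested. Of 159 called genes in the text 132 kept their call at every setting other than the stricter thresholds. COL1A2, PFKP, JUN and AQP1 lost it most often. Differences of genes below a log2 level of 3 are limited by array background.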
